A study of Gallus gallus with 3 samples.

Results

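MicroRNAs (miRNAs) typical of liver, nerve tissue and pancreas were examined in chicken leg muscle. The probes were taken by name, with no filter on their values, as miR-122, the miR-124 forms, miR-9, miR-137, miR-138, miR-375, miR-216 and miR-217, with star forms left out. These names were chosen with earlier results of these data known. Of the 542 chicken miRNAs on the array, 9 had such a name: gga-miR-122, gga-miR-124a, gga-miR-124b, gga-miR-9, gga-miR-137, gga-miR-138, gga-miR-375, gga-miR-216 and gga-miR-217. The question was which of them stay at background in leg muscle and which do not, and whether any differs between the strains.

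The tissue was the centre of the gastrocnemius of 7-week-old dwarf recessive White Rock chickens and normal recessive White Rock chickens, 9 birds per strain, kept under the same conditions. Dwarf chickens carry a deletion at the end of the growth hormone receptor gene, and each strain was bred for generations, so the deletion and other differences between the strains cannot be told apart. Each strain gave 3 RNA pools of 3 birds, and each of 3 two-colour arrays held 1 dwarf and 1 normal pool. The dwarf pool was in Cy5 on arrays 1 and 3 and in Cy3 on array 2. The sex of the birds is not given in the sources used here.

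A miRNA guides repression of messenger RNAs mainly through its seed, bases 2 to 8, which pairs with sites in the target. Some miRNAs are made almost wholly in 1 organ. In vertebrates, miR-122 is the dominant miRNA of hepatocytes, where it acts on lipid and cholesterol metabolism. The miR-124 forms, miR-9, miR-137 and miR-138 are known from neurons and neural progenitors, miR-375 from pancreatic islets and other endocrine cells, and miR-216 and miR-217 from the exocrine pancreas. Muscle tissue also holds nerve endings, vessels and blood, so a muscle pool can carry RNA of other cells.

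The mature sequences that the probes target are given because they show which neighbouring miRNAs could share a probe's signal. They come from the deposited array files and run 5′ to 3′, with the seed in capitals.
gga-miR-122: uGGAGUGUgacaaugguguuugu
gga-miR-124a: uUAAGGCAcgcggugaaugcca
gga-miR-124b: uUAAGGCAcgcagugaaugcca
gga-miR-9: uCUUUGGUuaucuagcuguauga
gga-miR-137: uAUUGCUUaagaauacgcguag
gga-miR-138: aGCUGGUGuugugaauc
gga-miR-375: uUUGUUCGuucggcucgcguua
gga-miR-216: uAAUCUCAgcuggcaacugug
gga-miR-217: uACUGCAUcaggaacugauuggau
Among all 542 miRNAs, the only seed that a member shared was that of miR-124a and miR-124b, which differ by G12A, counted from 1 at the 5′ end of miR-124a. The sequences were 17 to 24 bases long, the shortest being miR-138, and held 34.8% to 54.5% G and C. The members thus had separate seeds apart from the miR-124 pair.

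Relatives with probes of their own are shown as well. Of these, miR-9* is the other strand of the miR-9 precursor and not close to miR-9 in sequence.
gga-miR-122b: aGUGUGACacugguguuuuu
gga-miR-216b: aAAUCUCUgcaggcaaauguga
gga-miR-216c: aUCUCUACagguaauugugaga
gga-miR-9*: uAAAGCUAgagaaccgaaugu
Over the 20 bases that they share, miR-122 and miR-122b differed at 2 positions, A13C and G22U, counted from the 5′ end of miR-122. Their seeds differ because miR-122b starts further along. Over 21 bases, miR-216 and miR-216b differed at 4 positions, with U1A, A8U, U11A and C17A counted in miR-216. In the RefSeq gene table for chicken (bGalGal1.mat.broiler.GRCg7b), miR-216 and miR-217 were the neighbouring genes MIR216A and MIR217, with MIR216B and MIR216C beside them and LOC107052837 around them. The table held 2 genes for miR-122, MIR122-1 and MIR122-2, and the neighbour of MIR122-2 was MIR122B-1. It held 4 genes for miR-9, MIR9-1 to MIR9-4, and 2 each for miR-124a and miR-138, so an array signal for these sums over their genes.

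Each miRNA had 6 spots per array, 3 in its upper and 3 in its lower rows. Signal values are spot intensities in scanner units after subtraction of a local background, loess and scaling of the arrays, averaged over the 6 spots. A miRNA was called detected in a strain when its mean signal over 3 pools was above 32. The defining miRNAs of skeletal muscle were present: of 7 listed, dwarf chickens had 6 above this limit and normal chickens 5, and miR-1a averaged 21124 ± 7748 in dwarf pools and 26963 ± 5305 in normal pools (SD, n = 3 each). Background noise differed between the dyes. The median absolute deviation (scaled to an SD) of background-subtracted spots of undetected miRNAs was 9.78 to 29.5 in Cy3 and 2.06 to 3.30 in Cy5. With 3 arrays, precision is limited by their number, and p-values measure only the spread between these pools and arrays.

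One member, miR-122, stood above background, and the other 8 did not. In dwarf chickens 1 of the 9 members was detected, against 15.7% of all 542 miRNAs. In normal chickens 1 of the 9 was detected, against 13.7% of all miRNAs. Both counts are miR-122. In dwarf chickens the count was 0 when a mean signal above 100, or a signal above 32 in every pool, was asked for. In normal chickens it was 9 with the background taken from the empty spots, which also put 540 of all 542 miRNAs above 32.

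**Figure D1:**
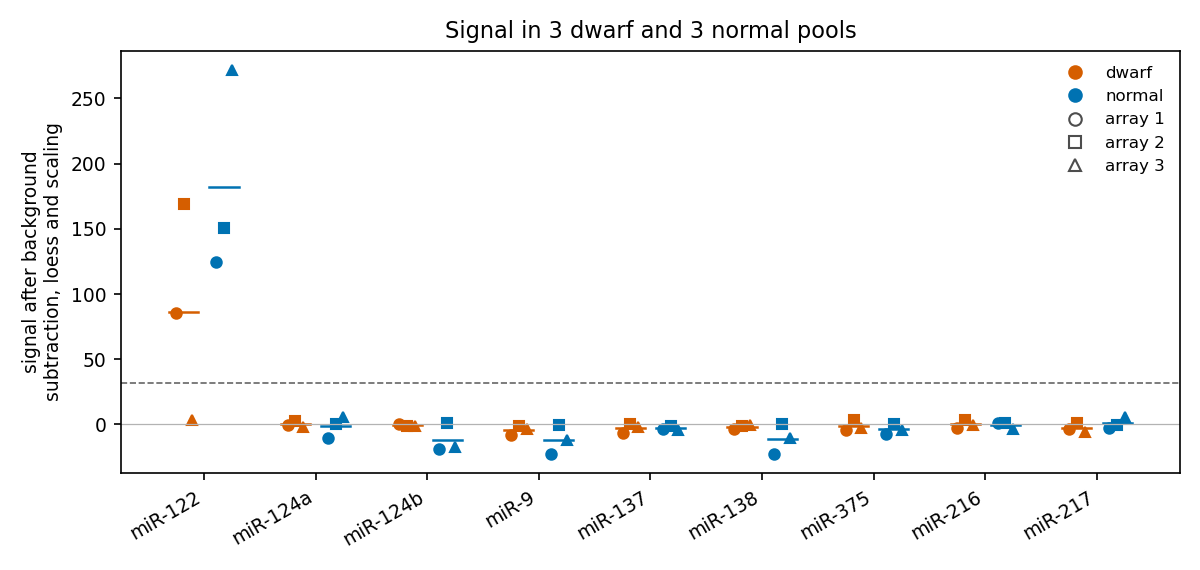
Signal values (scanner units, after background subtraction, loess and scaling) of the 9 miRNAs in each pool, dwarf pools left and normal pools right for each miRNA. Points are pools, marked by array, short lines are means of 3 pools, and the dashed line is the detection limit of 32. Only miR-122 has pools above the line, 2 of 3 dwarf pools and all 3 normal pools.

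In the dwarf pools, miR-122 had signals of 85.3, 169 and 3.67 on arrays 1, 2 and 3, and in the normal pools 125, 150 and 272. The strains overlapped, since the dwarf pool of array 2 was above 2 of the 3 normal pools. The dwarf pool of array 3 was the only one of the 6 below 32. The means were 86.1 ± 82.9 in dwarf chickens and 182 ± 78.6 in normal chickens (SD, n = 3 pools each), and by an exact two-sided permutation test of 3 pools against 3 they gave p = 0.3, where the smallest possible p is 0.1. The dwarf mean rested on the pool of array 2: without that array it was 44.5. With no loess and no scaling, the means were 158 in dwarf chickens and 256 in normal chickens. With 3 pools against 3, the permutation test cannot pass 0.05, and it took no account of the pairing of pools on arrays or of the dyes. The difference was of the size of the spread between pools. Fewer cells that make a miRNA and less of it per cell cannot be told apart in such pools.

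The spots behind these values were followed back to the scanner. On array 1, the 6 spots averaged 73.7 (58.4 to 83.5) for the dwarf pool in Cy5 over a local background of 51.4, and 996 (966 to 1058) for the normal pool in Cy3 over 834. On array 2, where the dyes were swapped, they averaged 754 (665 to 850) for the dwarf pool in Cy3 over 306, and 186 (158 to 213) for the normal pool in Cy5 over 44.0. On array 3, they averaged 56.3 (49.9 to 64.2) for the dwarf pool in Cy5 over 53.7, and 1163 (1002 to 1284) for the normal pool in Cy3 over 700.4. All 6 spots were above local background in every pool but the dwarf pool of array 3, where the 3 in the upper rows were above and the 3 in the lower rows below. miR-122 was thus above background in both dyes, in Cy3 in all 3 arrays and in Cy5 on arrays 1 and 2.

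**Figure D2:**
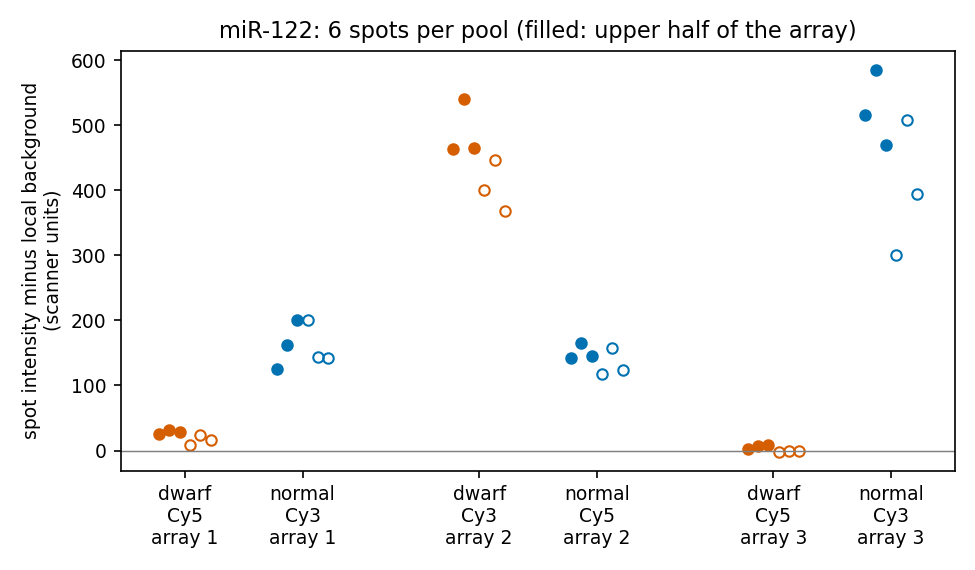
Intensity of each miR-122 spot minus its local background (scanner units, before loess and scaling), 6 spots per pool, dwarf left and normal right on each array, with the dye under each. Filled points lie in the upper and open points in the lower rows of the array. The dwarf pool of array 3 averaged 2.57 and the normal pool of that array 462.

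The loess and the scaling changed the size of these values. Without them, the background-subtracted intensities were 22.3, 448 and 2.57 in the dwarf pools and 163, 142 and 462 in the normal pools. The dwarf pool of array 1 was then also under 32. With and without these steps, the pool in Cy3 was higher on every array, whichever strain it came from. The dwarf pool was in Cy3 on array 2 only, so the strain means of the signals mix dye with strain. With a dye term in the limma fit of the ratios, the log2 fold change of miR-122 was −0.57. In the text that follows, noise units are background-subtracted spots divided by the median absolute deviation given above for their array and dye. On that scale the dwarf spots of array 1 lay at 3.28 to 12.4 and the normal ones at 4.25 to 6.81. On array 2 they were 37.7 to 55.2 in the dwarf pool and 57.2 to 80.7 in the normal pool, and on array 3 they were −0.50 to 2.69 in the dwarf pool and 12.3 to 23.9 in the normal pool. The normal pools thus stood clear of this noise on each array and the dwarf pools on arrays 1 and 2. The margin was small for both pools of array 1. The spots of its dwarf pool lay 8.43 to 31.7 over local background. For the empty spots of that array in Cy5, the 95th percentile was 4.33 over local background and the brightest 44.9.

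Within arrays, the log2 ratio of dwarf over normal for miR-122 was −0.15, −0.043 and −2.06 on arrays 1, 2 and 3. Ratios used another background correction (normexp with an offset of 50) than the signals, and on array 2 the ratio was slightly below 0 while the signal was higher in the dwarf pool. The mean log2 fold change was −0.75 ± 0.39 (moderated SE of limma, n = 3 arrays), with a moderated 95% interval of −1.69 to 0.19. The limma fit gave a Benjamini-Hochberg adjusted p of 0.77. Without moderation, the SE from the 3 arrays was larger, 0.66. All 3 ratios were below 0, and the exact two-sided sign-flip permutation test gave p = 0.25, the smallest that 3 arrays allow. Array 3 set the size of this value: without it the mean was −0.096. The SD between arrays was 1.14, the second largest among the 85 miRNAs tested, whose median SD was 0.28. Even the moderated interval thus took in both 0 and a log2 difference of −1.69.

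The test took in every miRNA detected in either strain, 85 in all. Adjusted over these, 0% passed a threshold of 0.05 in limma with Benjamini-Hochberg adjustment, 0 members among them, and no adjusted p was lower than 0.41. Before adjustment, 4 of 85 had a p under 0.05 in this limma fit, and miR-122 was not among them. The median log2 fold change of all 85 was 0.048. Of the 9 members, only miR-122 entered this test.

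The neural members gave no signal above background. miR-124a, which in mammals represses non-neuronal transcripts in neurons, had signals of −0.75, 2.38 and −1.94 in the dwarf pools and −10.2, −0.068 and 5.62 in the normal pools. The last of these was the highest of all 48 pool values of the 8 members other than miR-122. miR-124b, with the same seed, had 0.57, −1.26 and −1.52 in the dwarf pools and −18.8, 0.86 and −17.0 in the normal pools. Its 2 lowest values were the normal pools in Cy3, the noisier dye. The pools of the strains overlapped for both forms.

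miR-9, known from neural progenitors, had signals of −8.30, −0.97 and −3.93 in the dwarf pools and −22.7, −0.20 and −12.1 in the normal pools. All 6 were below 0, and the value of −22.7 was the lowest of the 48. miR-137, which acts in neuronal differentiation, ranged from −6.90 to 0.022 over the 6 pools, with a median of −2.90. miR-138, known from dendrites, ranged from −22.6 to 0.033, with a median of −2.55. Each of these 3 overlapped between the strains and stayed below 32 in all 6 pools.

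The pancreatic members were at background as well. miR-375, a regulator of insulin secretion in mouse, had signals of −4.23, 3.17 and −3.18 in the dwarf pools and −7.16, 0.29 and −4.32 in the normal pools. miR-216 had −2.57, 3.13 and −0.18 in the dwarf pools and 0.94, 1.10 and −3.85 in the normal pools. miR-217, its neighbour in the genome, had −3.81, 1.31 and −5.72 in the dwarf pools and −2.49, −0.71 and 5.49 in the normal pools. For all 3 the strains overlapped around 0.

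Across these 8 miRNAs the strain means lay between −11.7 and 0.76, and 35 of the 48 pool values were below 0, which was so for 52.6% of the pool values of the 457 undetected miRNAs. The 457 include these 8, set apart by the same limit, so values within the central 95% of the 457 were largely fixed in advance. That range held 46 of the 48 values. The exceptions were 1 value each of miR-124b and miR-217, and both lay under the lower bound, at −17.0 in the normal pool and −5.72 in the dwarf pool of array 3. Of their 288 spots, 115 (39.9%) were above local background, against 49.6% of 16452 spots of undetected miRNAs. By dye, 50 of 144 were above it in Cy5 and 65 of 144 in Cy3. No spot of the 8 exceeded 3 noise units, the highest being 2.41 for miR-124b, whereas 30 of 36 spots of miR-122 did so. Among all spots of undetected miRNAs, which also set the noise units and include those of these 8, the share over 3 noise units was 2.77%. A level of these 8 miRNAs was therefore not detectable in these arrays, which does not show that they are absent, and a value below 0 says only that the spots were dimmer than their surroundings.

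**Figure D3:**
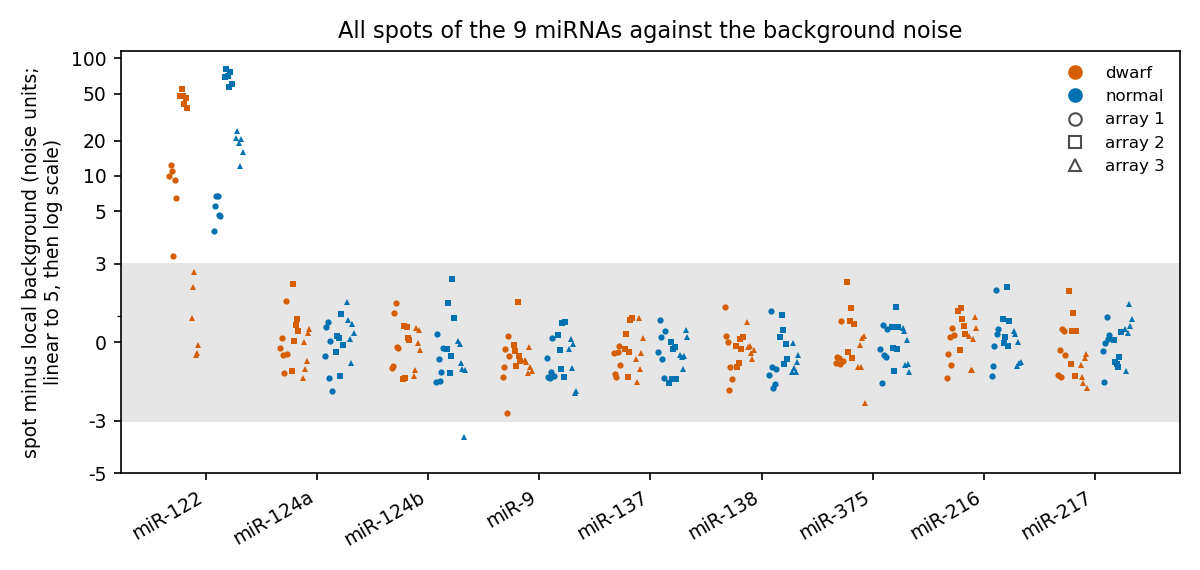
Background-subtracted intensity of every spot of the 9 miRNAs in noise units (axis linear up to 5 and logarithmic beyond), dwarf pools left and normal pools right for each miRNA, marked by array. The grey band spans −3 to 3. Of 36 miR-122 spots 30 lie above the band, the other 6 being the dwarf pool of array 3, and no spot of the 8 other miRNAs does.

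The relatives of the members were undetected too. miR-122b had signals of −3.67, 2.15 and −3.17 in the dwarf pools and −10.7, 7.50 and −2.30 in the normal pools, all near 0 where its close relative miR-122 gave signal in 5 of 6 pools. miR-9*, the other strand of the miR-9 precursor, miR-216b and miR-216c stayed below 32 in all 6 pools. None of the 4 relatives was detected in either strain.

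The log2 ratios of the 8 members came out differently in 2 versions of the data. In the table of log2 ratios that the authors deposited, they ran from −1.27 to 1.86 over the 24 values, and 6 of 24 lay more than 1 from 0. These were miR-124b with 1.69 on array 1 and 1.86 on array 3, miR-138 with 1.13 on array 1 and 1.10 on array 3, miR-137 with 1.55 on array 2 and miR-217 with −1.27 on array 3. With normexp and an offset of 50, the same 24 ratios ran from −0.18 to 0.072, and 0 of 24 lay more than 1 from 0. The offset adds 50 to both dyes and draws ratios of dim miRNAs toward 0. This narrow range was therefore largely set by that step. For none of these 6 was there a signal above 32 in either pool of the array. For undetected miRNAs in general, the deposited ratios had an SD of 0.57 to 0.82 per array. For the detected miRNAs it was similar, 0.52 to 0.89, so this spread was not particular to miRNAs at background.

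For miR-122 the deposited log2 ratios were −0.13, −0.20 and −4.65 on arrays 1, 2 and 3. They share the sign of the recomputed ratios on each array and differ most on array 3. There the dwarf pool had no signal above 32, so the size of that ratio rests on how a value at background is treated. With plain subtraction in place of normexp and its offset, the mean log2 fold change of miR-122 was −2.05 ± 1.35 (moderated SE of limma). With them it was −0.75. In an unfiltered limma fit over all 542 miRNAs, the Benjamini-Hochberg adjusted p was 0.90 for miR-122 and miR-9 and 0.91 to 0.96 for the other 7.

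**Figure D4:**
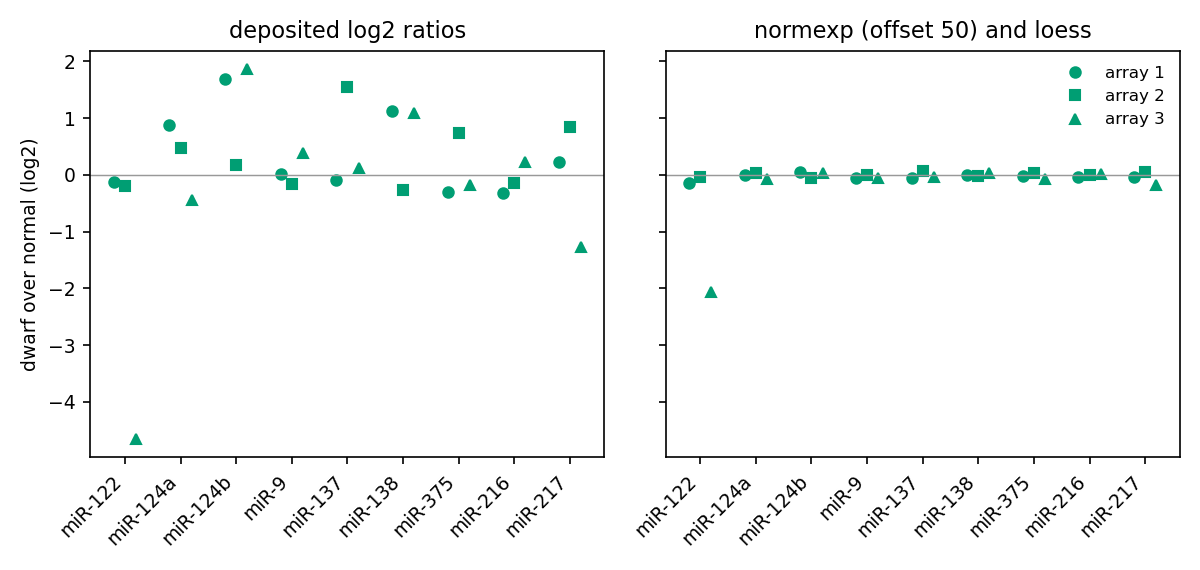
Log2 ratio of dwarf over normal for the 9 miRNAs on each array, left as deposited and right recomputed from scanned intensities with normexp (offset 50) and loess. Points are arrays. The 8 background miRNAs spread from −1.27 to 1.86 on the left and from −0.18 to 0.072 on the right, while miR-122 on array 3 is the lowest point in both.

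Lists of miRNAs from the same and other tissues were read beside the members. Of 7 further miRNAs of nerve tissue with probes, 1 was detected in each strain: miR-128, known from neurons and also made in muscle, with a mean signal of 1255 ± 105 in dwarf chickens and 1340 ± 239.6 in normal chickens (SD, n = 3 pools each). Its log2 fold change was −0.12 (adjusted p = 0.97, limma). miR-7, miR-7b, miR-153, miR-218, miR-219 and miR-383 were undetected. Neither miR-194 nor miR-215, of gut and kidney as well as liver, was detected in either strain. None of 7 epithelial miRNAs was detected. Among the miRNAs of nerve tissue, members included, miR-128 was thus the one above background.

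Of 6 miRNAs of blood and vessels, 3 were detected in each strain. miR-126, of endothelium, averaged 3631 ± 1782 in dwarf pools and 2907 ± 842 in normal pools (SD, n = 3 each). miR-451, of red cells, averaged 90.6 ± 47.0 in dwarf pools and 55.5 ± 11.9 in normal pools. miR-223, of myeloid cells, averaged 37.1 ± 8.41 in dwarf pools and 35.8 ± 22.5 in normal pools. For each of them the strains overlapped. On array 3, where miR-122 was at background in the dwarf pool, miR-126 had signals of 5660 in the dwarf pool and 2424 in the normal pool, and miR-451 had 135 in the dwarf pool and 42.1 in the normal pool. The summed signal of the 6 miRNAs was 2456 to 5832 over the dwarf pools and 2482 to 3963 over the normal pools. The ranges overlapped, and miR-144, miR-142-3p and miR-142-5p were at background in all pools. Whether RNA of blood or vessels had a part in the miR-122 values was not tested. No miRNA of these lists passed the test between strains, with median log2 fold changes of 0.087 over the 3 blood and vessel miRNAs tested and −0.14 over the 6 muscle ones.

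The tested miRNAs whose log2 signals ran most like those of miR-122 over the 6 pools were miR-133a, miR-140* and miR-133b, with Pearson r of 0.54, 0.49 and 0.49. miR-133a had signals of 6430, 2938 and 1695 in the dwarf pools and 4854, 3139 and 2838 in the normal pools. As with miR-122, its lowest value was the dwarf pool of array 3. These are descriptions over 6 pools that share arrays in pairs and were chosen as the highest of all tested, and the r values are low.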

How the data were processed

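The 3 arrays held 3968 spots each, 3252 of them for 542 miRNAs and 408 empty. The deposited tables give the authors' mean intensity per spot and dye on a linear scale, with no background subtracted. The authors also deposited log2 ratios per miRNA made after background subtraction and LOWESS. Their direction, dwarf over normal, was found by comparison with the scanned values (r = 0.83, 0.88 and 0.89 over 85 miRNAs), and their centring was left as given, with medians of 0.15, 0.018 and 0.15. They served as an alternative. Labels and paper name different RNA extraction kits. Gene names and neighbouring genes were taken from the RefSeq gene table, and no coordinates are given.

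R 4.3.3 and limma 3.58.1 were used. The local background of each array and dye was a robust loess surface (span 0.3) of log2 intensity over row and column through the miRNA spots. For signals it was subtracted, each dye was corrected by an equal share of the loess curve, and the arrays were scaled to 1 median. That curve was fitted to intensities after normexp with an offset of 50, not to the subtracted intensities that it corrected. For ratios, normexp with an offset of 50 and loess (span 0.3, 4 iterations) were applied, 6 spots were averaged and array 2 was turned. Each miRNA detected in either strain was tested by limma (lmFit, eBayes) against 0 with Benjamini-Hochberg adjustment at 0.05. Signals of 3 against 3 pools and the 3 ratios were tested by exact permutation. The arrays pair the pools by hybridization. For the correlation, log2 signals were floored at 1. Named are all members, their relatives with probes, the marker lists and the 3 tested miRNAs most correlated with miR-122. The members, lists and alternatives were chosen with earlier results of these data known. The fit was also run on simulated data. Their spread between arrays was set below that of miR-122, so that run does not bear on miR-122. The embryo and mRNA arrays were not analysed here.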

Additional observations from a re-analysis of the deposited data

How the results depend on the processing

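The count of members detected in dwarf chickens was 0 when a mean signal above 100 or a signal above 32 in every pool was asked for, since miR-122 then dropped out. With the background taken from the empty spots, 9 members were detected in normal chickens, and the highest mean of the 8 other than miR-122 was 54.1, but so were 540 of all 542 miRNAs (99.6%): in Cy3 the empty spots were dimmer than the typical miRNA spot. In dwarf chickens that background left 1 member detected. Over 14 alternatives the log2 fold change of miR-122 stayed below 0, between −2.20 with no replicate block (pools unpaired, signals floored at 1, adjusted p = 0.66) and −0.096 without array 3, and its adjusted p in limma or the methods' t-test was 0.25 to 0.96. The unadjusted limma p of miR-122 was 0.017 with a filter at a mean signal of 100, 0.018 with an offset of 16 and 0.027 without array 1. In the other alternatives its unadjusted p was above 0.05. No member passed the adjusted threshold in any of the 14. The count of all miRNAs past it was 2 with an offset of 16, 1 with a filter at a mean signal of 100, and 0 to 3 when 1 array was left out. With no replicate block it was 0, and with the methods' t-test 0 after Benjamini-Hochberg and 4 at an unadjusted p under 0.05. The noise per spot on arrays 1 and 3 was 2.57 and 3.30 in Cy5, which held the dwarf pools, and 29.5 and 24.4 in Cy3, which held the normal pools, so the depth at which a dim miRNA could be seen differed between the strains there.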
